A study of Mus musculus and Rattus norvegicus with 26 samples.

Results

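The introns described here are those found with sequence in the dendrites or in the somas of rat hippocampal neurons. Transcripts that keep part of an intron outside the nucleus are called cytoplasmic intron-sequence retaining transcripts (CIRTs), and for each compartment the study deposited a list of contigs, which are stretches of intron covered by clustered reads. An intron was taken as a member when the dendrite list or the soma list held a contig in it, and introns were matched between the lists by RefSeq transcript, gene symbol and intron number. This gave 10891 introns in 5712 genes, out of 57490 introns over the lists of all 6 conditions of the series. The neurons came from Sprague-Dawley rats at embryonic day 18 and were grown in culture. The dendrite list pools 2 libraries, each made from many dendrites that had been cut off by hand. The soma list pools 3 libraries, each made from the cell body of a single neuron, which contains the nucleus. The lists thus differ in the number of cells as well as in the compartment, and these cannot be told apart. Cutting neurites by hand does not separate dendrites from axons. All 5 libraries went through 3 rounds of antisense RNA (aRNA) amplification, which copies RNA linearly from its poly(A) tail. The paper states that its primers also recognise tracts of A inside introns. The sample labels name no genotype, drug or stimulus. Since each list is a single pool, no spread between libraries can be given. The values below are therefore descriptions of 2 pools, with no test. Intervals of single ratios take reads as independent draws, and those of shares and medians take introns or genes so. None of them covers a spread between libraries.

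Introns are normally spliced out of the pre-mRNA in the nucleus before the mRNA is exported. Some introns are kept, and a kept intron can carry signals for localisation, decay or alternative processing of the transcript. Dendrites lie far from the nucleus and translate a set of localised mRNAs, so RNA found in a dendrite is taken to have been transported there. A soma holds the nucleus as well, so intron reads from it also include unspliced pre-mRNA, and these sources cannot be told apart in the soma list. In a pooled list, a fuller coverage of an intron can come from more cells that contain it or from more copies per cell, and these also cannot be told apart.

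Designed sequences were at hand for 2 listed introns, and they are shown because they were placed at a junction joining 2 parts of the same intron. For each intron, a first pair lay around the junction, and in a second pair the left primer spanned it. Intron 8 of H13, which encodes the intramembrane protease signal peptide peptidase, was in both lists, while intron 8 of Rbm5, which encodes a splicing regulator, was in the soma list only. The primers are written 5′ to 3′ in lower case, and no base is marked by a capital.
H13 intron 8, first pair, left primer: gtggtgtacggcaggtttct
H13 intron 8, first pair, right primer: cataagcagagctccctcca
H13 intron 8, second pair, left primer across the junction: aacataagaatggcctgaaca
H13 intron 8, second pair, right primer: ctgagggcagtgtgactttct
Rbm5 intron 8, first pair, left primer: caagcttgaggacctgtgttc
Rbm5 intron 8, first pair, right primer: ctgccatgcctctctagcac
Rbm5 intron 8, second pair, left primer across the junction: aaaagtaggcagggcatggt
Rbm5 intron 8, second pair, right primer: acggagaagtccatgtctgg
In the rn4 build of the rat genome, the dendrite contig of H13 lay at chr3:143043070-143043767 and the soma contig at chr3:143042965-143043767, on the plus strand. Both contigs ended on the same base, and the soma contig began further upstream. H13 intron 8 had 2095 reads in dendrites and 2829 in somas. Rbm5 intron 8 had 813 reads in somas, in a contig at chr8:113009827-113010668 on the minus strand. Rbm5 was nevertheless in both lists, because introns 4, 5 and 6 were. Its intron 4 had 1034 reads in dendrites and 476 in somas, and its intron 5 had 59 and 582, so neighbouring introns of Rbm5 leaned towards different compartments.

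The dendrite list held 8459 contigs in 7426 introns of 4485 genes, with 1007530 reads when the count of each intron was taken once. The soma list held 6103 contigs in 5315 introns of 3393 genes, with 2094541 reads. The median intron had 14 reads in dendrites and 24 in somas. Counts were divided by the list total and expressed per 1000000 listed reads (RPM) to compare the lists. Even counts made up 69.3% of the dendrite counts and 70.0% of the soma counts, and how the mates of a read pair were counted was not tested. Reads amplified from 1 RNA are not separate molecules. The intervals below are therefore narrower than the true uncertainty. The marker lists could be checked only weakly, because a gene appears only through its introns. Of 10 neuron markers, the adhesion molecule Ncam1 was in both lists and the presynaptic protein Snap25 in the soma list only, whereas Map2, Tubb3, Syn1 and Camk2a were in neither. Markers of glia and endothelium also appeared: 3 astrocyte, 1 oligodendrocyte, 2 microglia and 2 endothelial genes. Of these, Itgam of microglia had 701 reads in dendrites and was not listed in somas, and Mog of oligodendrocytes had 139 and 58 reads. On the soma side, Ptprc of microglia (125 reads) and Slc1a2 of astrocytes (225) were listed in somas only. Slc1a3 of astrocytes had 69 reads in dendrites and 27 in somas, and Flt1 of endothelium 228 and 6. S100b of astrocytes (9) and Tek of endothelium (24) were listed in dendrites only. The part of other cells in the differences between the lists was not tested.

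Most introns were listed in 1 compartment. The libraries of a compartment also differed in their introns. The paper reports that only a small part of the retained introns was found in all libraries of a group. The pooled lists do not name the library of an intron. How much of the split below goes with the compartment was therefore not tested. Of the 10891 introns, 5576 (51.2%) were in the dendrite list only, 3465 (31.8%) in the soma list only and 1850 (17%) in both. The 1850 shared introns were 24.9% of the dendrite list (95% Wilson interval 23.9 to 25.9) and 34.8% of the soma list (33.5 to 36.1). For somas the study kept contigs of at most 400 bases, to limit unspliced nuclear RNA, while the deposited list also holds longer ones. Under that limit 1228 introns were shared (16.5% of the dendrite introns) and 2278 were soma-only. For introns with at least 32 reads, 556 were shared, 2253 dendrite-only and 1951 soma-only. Without these limits, the 1850 shared introns held 39.8% of the dendrite reads and 44.4% of the soma reads, more than their share of introns. Genes were shared more often than introns. Of 5712 genes, 2319 (40.6%) were in the dendrite list only, 1227 (21.5%) in the soma list only and 2166 (37.9%) in both. The shared genes were 48.3% of the dendrite genes and 63.8% of the soma genes. An intron that is not listed may have had no reads or may have been removed by the authors' filters, so it is not an intron at 0.

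The chance of finding an intron in the other list went up with its reads. Among dendrite introns with 2 or 3 reads, 16.01% (14.3 to 17.9) were also in the soma list. For 1024 reads or more this was 42.8% (35.3 to 50.5), that is 68 of 159 introns. Soma introns started higher, at 26.8% (24.0 to 29.7) for 2 or 3 reads. Between 4 and 1023 reads their share stayed between 33.3% and 39.6%, and for 1024 reads or more it was 42.0% (37.6 to 46.5), or 196 of 467 introns. Of the introns with 1024 reads or more, most were thus missing from the other list. The highest class of the dendrite list, 4096 reads or more, held just 17 introns, of which 9 were shared.

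**Figure D1:**
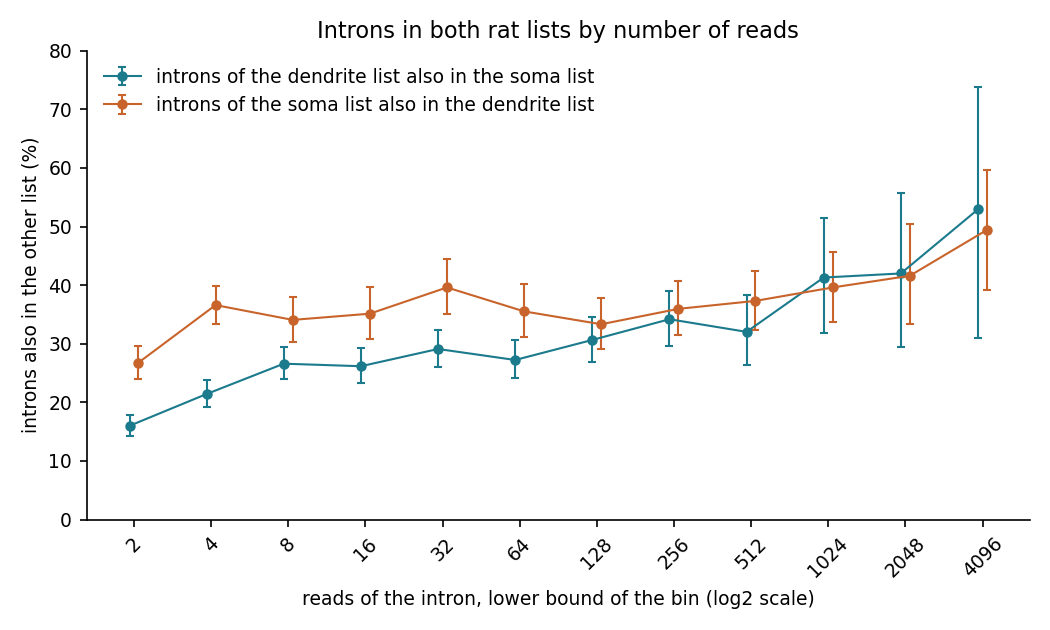
Share of introns (%, vertical axis) that were also in the other rat list, by the number of reads of the intron (horizontal axis, log2 scale, each point a doubling), with bars for 95% Wilson intervals. The dendrite points climb from 16.01% to 52.9%, the last of which rests on 17 introns, and the soma points from 26.8% to 49.4%.

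The 12 dendrite-only introns with the most reads belonged to genes of varied function. Intron 4 of Sipa1l3, a GTPase-activating protein for Rap, had 25042 reads (24855 RPM) in a contig of 996 bases at chr1:84469739-84470734. Intron 7 of Tpm1, an actin-binding tropomyosin, had 12950 reads in 2 contigs. Intron 8 of Meis2, a homeobox transcription factor, had 9206 reads at chr3:102021342-102022089. These introns were read deeply in dendrites without being listed in somas. Elovl4, an elongase of very long fatty acids, followed with 9125 reads in intron 1, and Sdf4, a calcium-binding protein of the Golgi, with 7366 in intron 4. Ube2b, an E2 enzyme of ubiquitin conjugation, had 5601 reads in intron 3, and Nap1l1, a nucleosome assembly protein, had 4408 in intron 9. Bdh1, a mitochondrial enzyme of ketone body metabolism, had 4119 reads in intron 2. The remaining 4 of the 12 were RGD1308517 intron 6 (3921 reads), Arnt intron 8 (3763), Dirc2 intron 2 (3627) and Dcc intron 5 (3398). Arnt is a partner of bHLH-PAS transcription factors, and Dcc is the netrin receptor of growing axons. A dendrite-only intron did not make a dendrite-only gene. Meis2 was listed in somas with 32 reads in another intron, Arnt with 40, Sdf4 with 274 and Dcc with 826, while the other genes were not listed in somas.

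The 12 soma-only introns with the most reads also belonged to genes of varied function. Intron 3 of Gab2, a docking protein of growth factor signalling, had 19787 reads (9447 RPM) in 2 contigs, the longer of 2669 bases at chr1:154514632-154517300. Intron 5 of Fyn, a Src-family kinase of neurons, had 19190 reads at chr20:43647368-43648506. Intron 18 of Cenpi, a kinetochore protein, had 19031 reads in 571 bases, and intron 12 of Nell1, a secreted glycoprotein, 18580 reads in 4 contigs. Then came intron 8 of the transcription factor Gtf2ird1 with 16348 reads and intron 14 of Patl1, which takes part in mRNA decay, with 16153. Adamts2, a procollagen peptidase, had 13774 reads in intron 19, and Akap10, an anchor of protein kinase A, had 11752 in intron 8. Magi1, a scaffold of cell junctions and synapses, had 10720 reads in intron 11 and Leng4 10702 in intron 7. The last of the 12 were intron 2 of the coatomer subunit Copb1 (10620 reads) and intron 20 of the adhesion molecule Dscam (10148). Of these genes, all but Patl1 were listed in dendrites through other introns. Nell1 had 1128 reads in 7 introns in dendrites, Akap10 974, Gtf2ird1 161 and Fyn 104. The other genes had from 4 reads (Cenpi and Magi1) to 36 (Dscam).

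The introns in both lists differed widely in their share of the reads. A ratio was computed for the 1523 shared introns with at least 16 reads in the sum of both lists. The median log2 ratio of RPM, dendrite over soma, was 0.62 (95% interval from order statistics 0.36 to 0.84), with quartiles at -2.33 and 2.99. A 4-fold or larger ratio was found in 943 introns (61.9%), of which 524 were higher in dendrites (34.4%) and 419 higher in somas (27.5%). A ratio past 32-fold was found in 341 introns (22.4%). The middle of the distribution moved with the reads summed over both lists. For 16 to 63 reads the median was 1.49, and for 1024 reads or more it was -2.26. These sums are unscaled, and the soma list held more reads. A high sum thus favours introns read deeply in somas, and part of this trend can come from the classes. When the lists were scaled to the median ratio of introns with at least 16 reads in each, all log2 ratios fell by 0.42, so signs of ratios between 0 and 0.42 depend on the scaling. With that scaling 456 introns were called higher in dendrites and 466 higher in somas. The split between the directions thus rested on how the lists were scaled, and the share past 4-fold did not, at 60.5%.

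**Figure D2:**
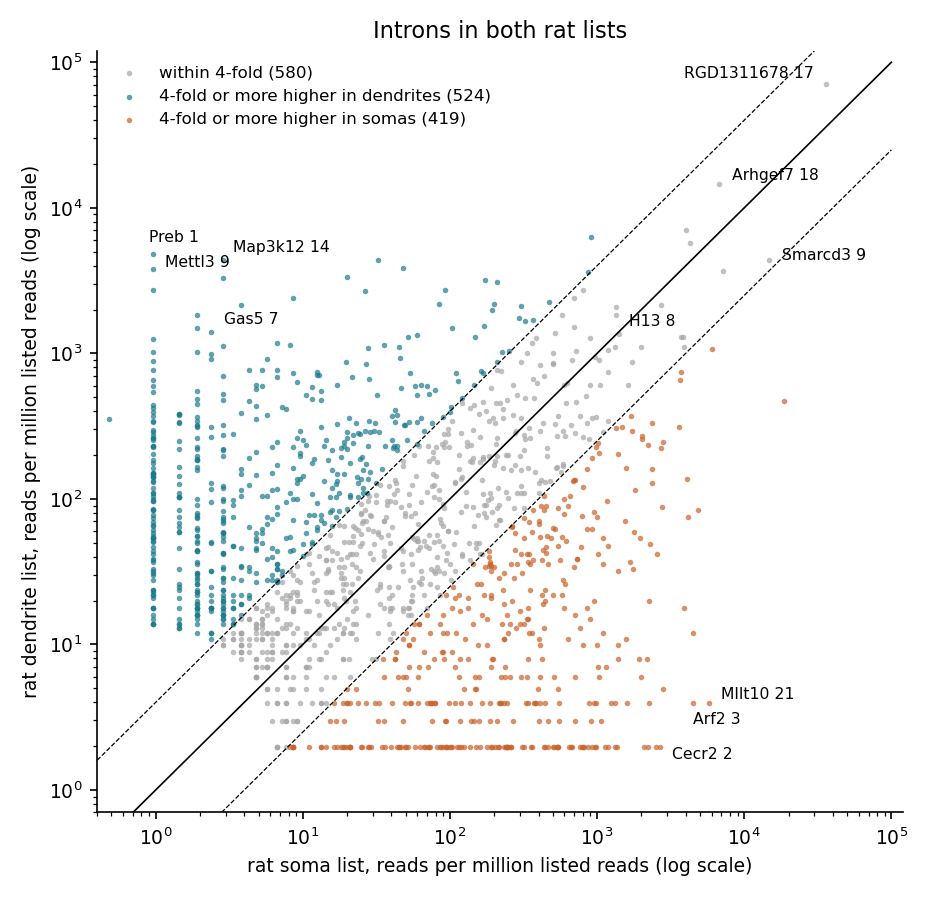
Introns in both rat lists with at least 16 reads in all, by RPM in somas (horizontal axis) and in dendrites (vertical axis), both on log scales. Each point is an intron, the solid line marks equal values and the dashed lines 4-fold, and 524 points lie above and 419 below the dashed lines, many in the rows of 2 to 4 reads at the left and bottom edges.

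A few introns were read deeply in both compartments. Intron 17 of RGD1311678 had 71641 reads in dendrites (71106 RPM) and 75845 in somas (36211 RPM), a log2 ratio of 0.97. Its contigs lay at chr3:146788346-146790967 and chr3:146788256-146790967, again ending on the same base. Intron 18 of Arhgef7, a guanine nucleotide exchange factor for Rac and Cdc42, had 14574 and 14195 reads, a log2 ratio of 1.09. Intron 9 of Smarcd3, a subunit of the SWI/SNF chromatin remodeller, had 4438 and 30864 reads, a log2 ratio of -1.74. Intron 12 of Frmd3 had 5764 and 8983 reads (0.42). Mllt4, the junction protein afadin, had 3679 and 15034 reads in intron 22 (-0.98), and Tax1bp1, an autophagy receptor, had 2161 and 5709 in intron 12 (-0.35). Nr1i3, a nuclear receptor known from liver, had 1372 and 2928 reads in intron 7 (-0.04), and RGD1303066 had 1861 and 2822 in intron 10 (0.46). H13 intron 8 stood among them with a ratio of 0.62. Of these 10 introns chosen for the highest smaller value, none was past 4-fold.

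At the other end, introns read deeply in 1 compartment had 2 to 6 reads in the other. Intron 1 of Preb, a factor of vesicle budding from the endoplasmic reticulum, had 4824 reads in dendrites and 2 in somas, a ratio of 5014 with an interval from 1387 to 41416. Intron 9 of Mettl3, the enzyme that methylates adenosine in mRNA, had 3813 and 2 reads. Intron 7 of Rnmt, which methylates the mRNA cap, had 2746 and 2 reads, and intron 14 of Map3k12, a kinase of axon injury signalling, had 4377 and 6. The other 4 were Ndufs4 intron 3 (1264 and 2 reads), Ankrd17 intron 2 (3293 and 6), Agtpbp1 intron 26 (1031 and 2) and Zc3h13 intron 4 (1838 and 4). Zc3h13 is a partner of the complex that contains Mettl3. Higher in somas were intron 21 of Mllt10, a chromatin-binding protein, with 4 reads in dendrites and 12039 in somas, and intron 2 of Cecr2 with 2 and 5569. Ranbp17 intron 18 had 2 and 5270 reads, Arf2 intron 3 had 4 and 9358, and Sgpl1 intron 5 had 2 and 4383. Cyfip1, a protein of the complex that represses translation with FMRP, had 2 and 4636 reads in intron 6. Lamc1 intron 18 had 2 and 2843 reads and Hira intron 13 had 2 and 2792. These introns count as shared through 2 to 6 reads in the lesser list, and the intervals of their ratios are wide.

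Many genes had intron sequence in both compartments but from different introns. Of the 2166 genes in both lists, 735 (33.9%, interval 31.97 to 36.0) had no intron in common, 1431 had at least 1, and 481 (22.2%) had every listed intron in common. Akap10 was an example with many reads. Dendrites had its introns 2 (214 reads), 5 (703), 9 (15) and 14 (42), while somas had introns 7 (1210), 8 (11752) and 11 (354). Ythdc1, a nuclear reader of methylated adenosine, had introns 2 (10 reads) and 5 (3246) in dendrites and intron 1 (2294) in somas. Yeats2, a reader of acylated histones, had introns 1 (1505), 2 (1506) and 18 (8) in dendrites and intron 22 (1164) in somas. Birc6, a large ubiquitin-conjugating inhibitor of apoptosis, had 8 introns in dendrites and 4 in somas. Its deepest were intron 56 with 1088 reads in dendrites and intron 65 with 4135 in somas. Dync2h1, the heavy chain of the dynein of cilia, had 4 introns in each list. Of these, intron 53 had 1609 reads in dendrites and intron 71 had 1259 in somas. Reln, the secreted guide of neuronal layering, had introns 4 (2072 reads), 22, 42 and 55 in dendrites and 2, 11, 40 (520), 50 and 63 in somas. Myof had 1 intron in dendrites and 2 in somas, and Farp1 had 3 and 1. These 8 genes were chosen because they share no intron, so the separation is a description.

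**Figure D3:**
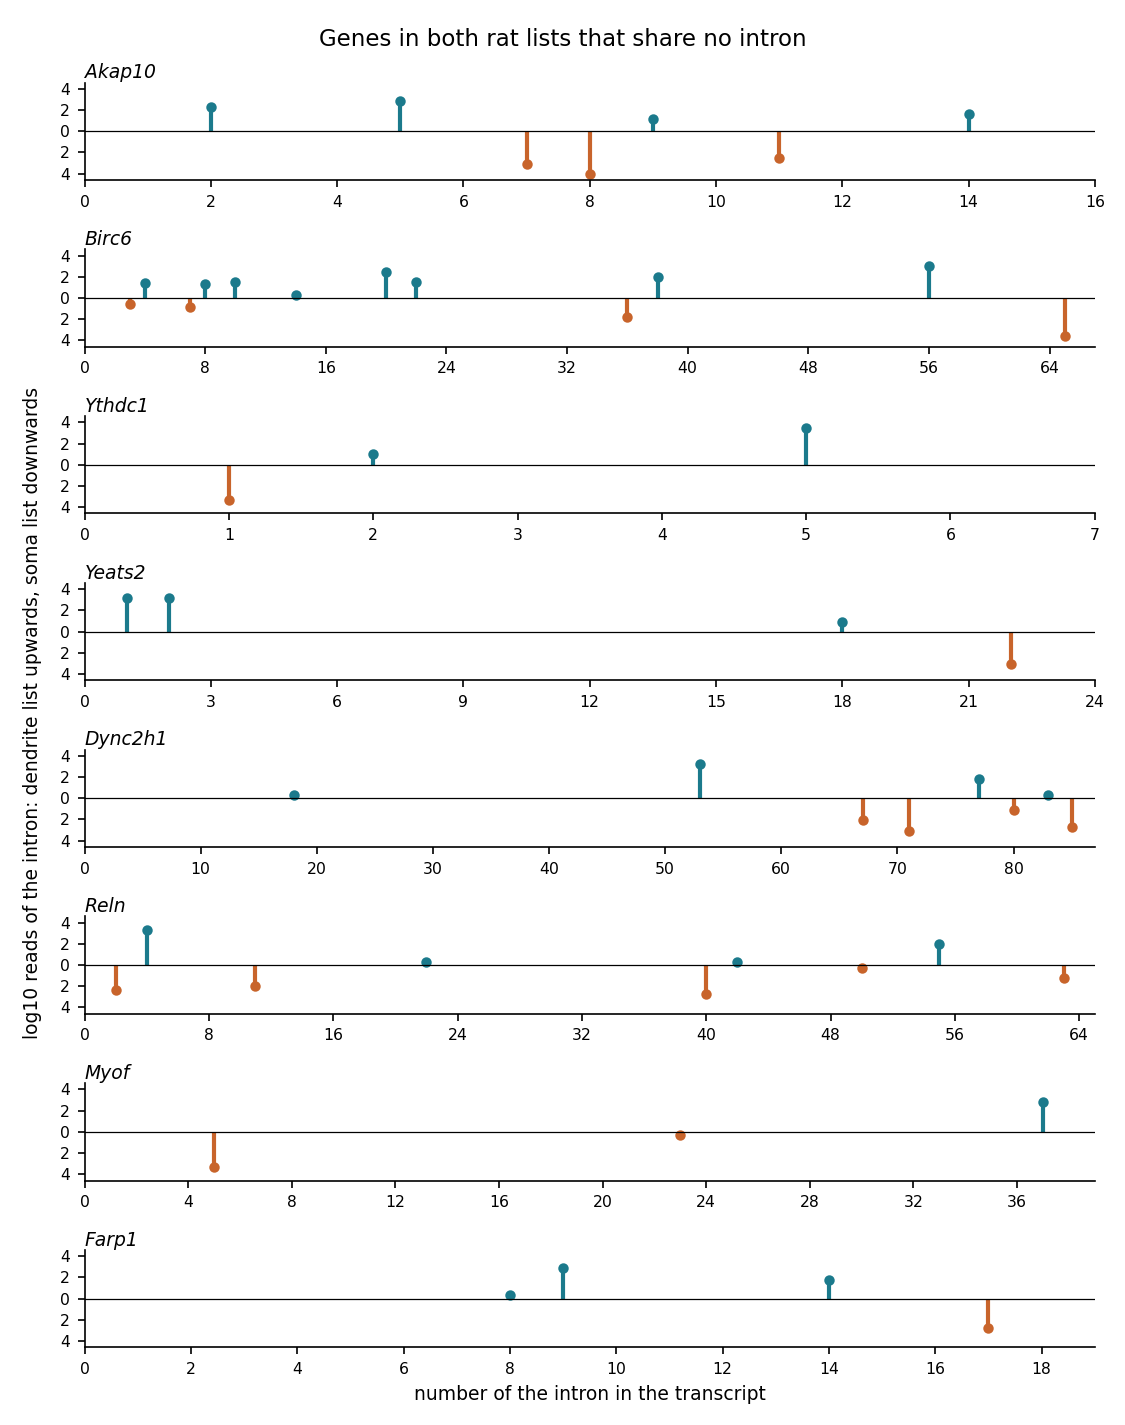
Listed introns of 8 genes that were in both rat lists and shared no intron. The horizontal axis is the number of the intron in the transcript and the height is the log10 of its reads, upwards for dendrites and downwards for somas. Dendrite and soma introns are interspersed along Akap10, Birc6 and Reln.

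Some genes were listed in 1 compartment with many introns. Cp, the copper-carrying ferroxidase ceruloplasmin, had 11 introns in dendrites with 2 to 1061 reads each and was not listed in somas. Rad50, a DNA repair protein, had 8, with 2 to 151 reads. Dlg1 (the scaffold SAP97), Itch (a ubiquitin ligase), Ptprz1 (a receptor phosphatase of glia and precursors) and Sos1 (an exchange factor for Ras) had 6 each. On the soma side, Mus81, a nuclease of DNA repair, had 6 introns with 4 to 517 reads. Sphkap, an anchor of protein kinase A, also had 6, with 4 to 1597 reads. Sfi1 and Ugdh had 5 each, and Hltf and Elmod1 had 4. In Hltf, a DNA translocase, introns 11 and 12 had 5162 and 6858 reads, and in Elmod1 intron 6 had 6115. Most genes were listed through fewer introns: 62.1% of dendrite genes and 66.6% of soma genes had a single one. The number of listed introns moved with sharing. Dendrite genes with 1 intron were also in the soma list in 38.3% (36.5 to 40.1), with 5 or more in 84.0% (76.7 to 89.3). For soma genes these shares were 56.2% and 95.5%.

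Shared introns often carried the same piece of sequence. In 1230 of the 1850 shared introns (66.5%, interval 64.3 to 68.6), a dendrite contig and a soma contig overlapped. In the other 620 introns the nearest contigs were a median of 2626 bases apart, so a shared intron number did not always mean shared sequence. Of the 1230 overlapping introns, 798 (64.9%) had a contig end within 10 bases of a contig end in the other list. Introns with 1 contig in each list allowed the ends to be placed on the strand of the gene. Of the 941 of them that overlapped, 490 (52.1%, interval 48.9 to 55.2) ended within 10 bases of each other on the 3′ side, 357 (37.9%, 34.9 to 41.1) on the 5′ side and 224 (23.8%) on both sides. The same order held for the 269 with at least 32 reads in each list, with 50.6% on the 3′ side and 39.0% on the 5′ side. Whether these ends were splice sites could not be read from the lists, which give no intron boundaries. Their relation to tracts of A inside introns was not tested.

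A group of 184 contigs in 163 genes began and ended on exactly the same bases in both lists. They were short, with a median of 226 bases and a range from 62 to 1070, and made up 2.18% of dendrite contigs and 3.01% of soma contigs. In the mouse lists of the series 76 contigs did so, or 0.287% of dendrite and 0.588% of soma contigs. Among the gene lists described below, protein synthesis and mitochondria held the most of them. Ribosomal proteins and translation factors contributed 26 contigs, or 23.9% of their 109 shared introns, and mitochondrial genes contributed 21, or 26.3% of 80. Over all genes, 9.95% of shared introns had such a contig. Intron 3 of Slc25a4, the ADP/ATP carrier of mitochondria, had 1847 reads in dendrites and 1218 in somas at chr16:49356081-49356828. Intron 2 of Atp5j, a subunit of ATP synthase, had 879 and 639 reads at chr11:24319158-24319997, and intron 1 of Ndufa1, a subunit of complex I, had 528 and 151. For ribosomal proteins the reads were less even. Intron 4 of Rps9 had 877 and 41 reads, intron 2 of Rps27 had 338 and 3, and introns 3 and 4 of Rps16 had 219 and 33 and 332 and 48. The other direction was seen in intron 1 of Rpl6, with 4 and 2008 reads, and in intron 3 of Rpl41, with 4 and 784. Introns 6 and 7 of Gas5, a non-coding host gene of small nucleolar RNAs, had 768 and 9 and 1411 and 5 reads, whereas its introns 9 and 10 had more in somas, with 22 and 399 and 32 and 225. Pcdh17, a protocadherin, had the same 175 bases with 633 and 1302 reads, a log2 ratio of 0.02. Of these contigs, 148 had at least 16 reads in the sum of both lists. Their median log2 ratio was 1.502, with 63 (42.6%) 4-fold or more higher in dendrites and 16 (10.8%) in somas, against 0.62, 34.4% and 27.5% for all 1523 shared introns with a ratio. They were also thinly read, with a median of 21.5 reads in dendrites and 15.5 in somas over the 184, and all shared introns with 16 to 63 reads had a median of 1.49. These contigs were seen after the data were explored, and the rat and mouse lists differ in depth and annotation.

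**Figure D4:**
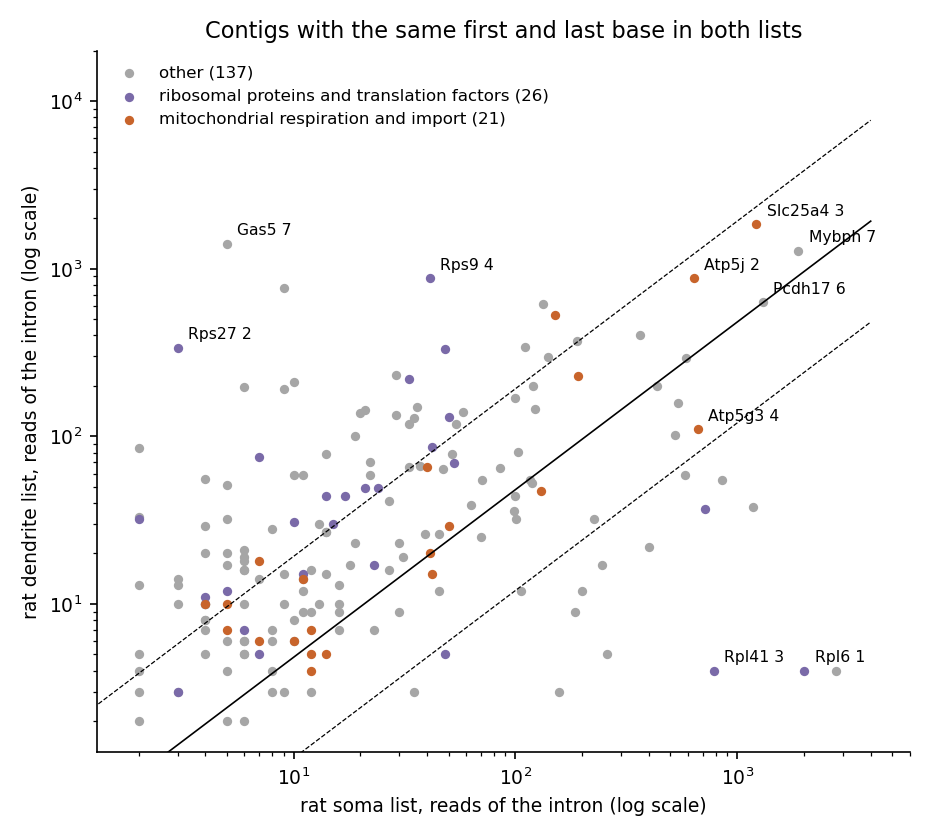
Reads of the 184 introns whose contig had the same first and last base in both rat lists, in somas (horizontal axis) and dendrites (vertical axis), both on log scales. Points are contigs, the solid line marks equal RPM and the dashed lines 4-fold, and all 184 are drawn, also those with fewer than 16 reads, of which 75 lie above the upper dashed line and 16 below the lower.

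Position and contig number were compared between the classes. First introns made up 10.2% of dendrite-only, 7.91% of soma-only and 12.5% of shared introns. The median intron number was 6, 6 and 5. A single contig was found in 92.1% of dendrite-only and 93.3% of soma-only introns, and in 82.2% and 84.4% of shared introns in the dendrite and the soma list. Shared introns had longer contigs, with medians of 301 bases in dendrites and 327 in somas, against 272 and 292 for introns of 1 list. Within classes of reads the medians lay closer in part. For 32 to 127 reads the dendrite medians were 402 bases for dendrite-only and 389 for shared introns, and for 512 reads or more they were 622 and 673. For 512 reads or more in somas, soma-only introns had a median of 698 bases and shared introns 746. The share of introns in both lists ran from 13.2% on chromosome 20 to 22.0% on chromosome 13.

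Genes of neuronal function were looked at through lists of symbols. Among all 5712 genes, 40.6% were dendrite-only, 21.5% soma-only and 37.9% shared, and these shares are the background for each list. Of 1956 shared genes with at least 16 reads, 35.9% were 4-fold or more higher in dendrites and 27.3% in somas, with a median log2 ratio of 0.54. The number of listed introns per gene was 1.91 on average. By list it ran from 1.58 for transcription factors to 3.13 for presynaptic release genes and 3.59 for adhesion molecules, among lists with 20 or more genes. Its part in the shares was not tested. Of 26 lists with 20 or more genes, the interval of the shared percentage held 37.9% in 20. The shared percentage depended on thinly read introns. With at least 32 reads in 1 intron, 25.3% of genes were shared, and in 11 of the 26 lists the percentage was lower by more than 1.5 times. Those lists are given with both values.

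Receptors and ion channels, which receive and shape synaptic signals, leaned towards somas. Of 17 glutamate receptor genes, 4 were dendrite-only, 6 soma-only and 7 shared. The AMPA receptor subunits Gria2 (245 reads in dendrites, 2284 in somas) and Gria4 (6 and 2243) had more reads in somas, whereas Gria3 had 642 and 6. The NMDA receptor subunit Grin1 had 10 and 295 reads, Grin2b was soma-only with 286 and Grin2d dendrite-only with 699. The kainate receptor Grik1 was soma-only with 1822 reads, and the metabotropic Grm8 was shared with 681 and 414. Of 15 genes of GABA and glycine signalling, 3 were dendrite-only, 7 soma-only and 5 shared. Gphn, the scaffold gephyrin of inhibitory synapses, was soma-only with 2297 reads. Potassium and HCN channels were spread as 8, 6 and 9 of 23 genes. Kcnh7 had 455 and 4447 reads and Kcnc1 8 and 3049, but Kcnh8 had 443 and 27. Calcium and sodium channels were spread as 8, 7 and 9 of 24 genes. The L-type channel Cacna1c had 2 and 3240 reads, the AMPA receptor partner Cacng2 had 1553 and 359, and the leak channel Nalcn was dendrite-only with 1275 reads in 5 introns. Shared genes were 2 of 14 glutamate receptors, 2 of 10 GABA and glycine genes and 3 of 13 potassium and HCN channels with at least 32 reads in 1 intron. Over these 4 lists, 26 of 79 genes (32.9%) were soma-only. Of the 29 shared genes with a ratio, 17 were 4-fold or more higher in somas and 4 in dendrites, with a median log2 ratio of -2.16. With at least 32 reads in 1 intron, 27 of 54 (50.0%) were soma-only, against 32.5% of all genes. At that minimum 12 were shared, of which 5 were 4-fold or more higher in somas and 1 in dendrites, with a median of -0.44. Of the 818 shared genes with that many reads, 19.4% were 4-fold or more higher in somas and 22.9% in dendrites, with a median of 0.17. The lists were joined after their values were seen. They were not matched by depth, and all shared introns with 1024 reads or more had a median of -2.26. In mouse, 9.73% of the genes of these lists were soma-only, against 11.8% of all mouse genes. Of the 70 mouse genes with a ratio, 18 (25.7%) were 4-fold or more higher in dendrites and 22 (31.4%) in somas. For all shared mouse genes with a ratio these shares were 35.1% and 25.2%. The median was -0.67, against 0.41 for all mouse genes.

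Scaffolds and release proteins of the synapse were found in all 3 classes. Of 23 postsynaptic scaffold genes, 7 were dendrite-only, 5 soma-only and 11 shared, or 3 of 18 shared with at least 32 reads in 1 intron. Dlg1 was dendrite-only with 457 reads, and Cask (1058 in dendrites, 25 in somas), Lin7a (638 and 46) and Dlgap3 (518 and 4) had more reads in dendrites. Shank1 (5 and 7060) and Grip1 (4 and 4938) had more in somas, and Shank3 was soma-only with 884. Of 32 genes of the presynaptic release machinery, 6 were dendrite-only, 10 soma-only and 16 shared. Among them Syt1, the calcium sensor of release, had 53 and 4520 reads, and Syn2 had 400 and 2955. Pclo, the active zone protein piccolo, had 1219 and 2512 reads in 5 introns each, a log2 ratio of 0.01, and Syt4 was dendrite-only with 708. Of the 15 presynaptic genes with a ratio, 1 (6.67%) was 4-fold or more higher in dendrites and 4 (26.7%) in somas. For all genes these shares were 35.9% and 27.3%.

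Adhesion molecules of the synapse had the highest shared percentage of the lists with 20 or more genes. Of 27 genes, 20 (74.1%, interval 55.3 to 86.8) were in both lists, 3 in dendrites only and 4 in somas only. These genes had 3.59 listed introns on average. The neurexin Nrxn3 had 2907 reads in 8 introns in dendrites and 13183 in 6 introns in somas. Ncam1 had 2950 and 7896 reads, a log2 ratio of -0.36, whereas Dscam (36 and 10886), Nrcam (32 and 4187) and Opcml (314 and 9959) had far more reads in somas. Of 28 axon guidance genes, 13 were shared, or 5 of 19 with at least 32 reads in 1 intron. Dcc had 3717 and 826 reads and Ntng1 715 and 4, while Slit2 had 4 and 1330. Epha7 was dendrite-only with 889 reads and Srgap1 soma-only with 2313. Cadherins were spread as 5, 5 and 8 of 18 genes, with Cdh6 at 362 and 4 reads and Ctnna1 at 59 and 1408.

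Genes of protein synthesis were mostly shared, and the reads of the cytosolic ribosomal proteins leaned towards dendrites. Of 136 ribosomal protein and translation factor genes, 88 (64.7%, interval 56.4 to 72.2) were in both lists, 36 in dendrites only and 12 in somas only. Their listed introns averaged 2.42 a gene. With at least 32 reads in 1 intron, 25 of 86 (29.1%) were shared, against 25.3% of all genes. The symbol pattern also caught 6 S6 kinase genes, among them Rps6ka3, the dendrite-only gene of this list with the most reads (3057). Cytosolic ribosomal proteins alone, a subset taken after the values were seen, were shared in 55 of 69 genes (79.7%), with 12 dendrite-only and 2 soma-only. Of the 53 with a ratio, 30 were 4-fold or more higher in dendrites and 8 in somas, with a median log2 ratio of 2.32. They were not matched by depth, and all shared introns with 16 to 63 reads had a median of 1.49. Counting genes with at least 32 reads in 1 intron, 16 of 51 cytosolic ribosomal proteins (31.4%) were shared, of which 6 were 4-fold or more higher in dendrites and 2 in somas, against 22.9% and 19.4% of all shared genes at that minimum. Rps27 had 997 and 3 reads and Rps24 1050 and 532, but Rps16 had 571 and 4805 and Rpl6 13 and 4241. In the mouse lists 19 of 40 ribosomal protein genes (47.5%) were shared, against 48.5% of all mouse genes, and their median log2 ratio was -3.07, and 9 of 16 with a ratio were 4-fold or more higher in somas and 0 in dendrites, against 25.2% and 35.1% of all shared mouse genes with a ratio. The median of this family was thus above 0 in rat and below 0 in mouse. No test across libraries was possible for either. Translation factors and tRNA synthetases were shared in 30 of 61 genes, with Eif4a1, the RNA helicase of initiation, dendrite-only at 911 reads and Eif2s1 soma-only at 492. Of the 25 with a ratio, 9 were 4-fold or more higher in dendrites and 9 in somas, with a median log2 ratio of 0.80. For all rat genes with a ratio, the shares were 35.9% and 27.3% and the median 0.54.

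Mitochondrial, ubiquitin and trafficking genes had shared percentages above that of all genes. Of 120 genes of mitochondrial respiration and import, 61 (50.8%, interval 42.0 to 59.6) were shared, with 1.78 listed introns a gene. Ndufa9 had 1061 and 361 reads and Slc25a21 1326 and 126, whereas Uqcrc2 had 2 and 1632 and Cox19 12 and 2310. Opa1, which fuses inner membranes, was dendrite-only with 558 reads, and the import receptor Tomm20 soma-only with 537. Of 181 genes of ubiquitin conjugation and removal, 93 (51.4%, 44.1 to 58.6) were shared, or 36 of 110 (32.7%) with at least 32 reads in 1 intron. Ube3a, the ubiquitin ligase lost in Angelman syndrome, had 280 and 15624 reads in 5 and 8 introns. Ube2m, the conjugating enzyme for NEDD8, had 3877 and 101, and Cul1 had 2 and 4295. Of 172 vesicle trafficking genes, 83 (48.3%, 40.9 to 55.7) were shared, with Dnm1 at 67 and 7588 reads and Rab6a at 495 and 2388.

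Genes that handle RNA were shared in 56 of 96 cases (58.3%, interval 48.3 to 67.7), with 25 dendrite-only and 15 soma-only. The shared count was 18 of 58 with at least 32 reads in 1 intron. The helicase Dhx36 had 389 and 6998 reads, Khdrbs2 140 and 9315 and Qk 566 and 5330. A2bp1 (Rbfox1) was dendrite-only with 1072 reads and Elavl3 soma-only with 1339. Among the 50 with a ratio, 15 (30.0%) were 4-fold or more higher in dendrites and 19 (38.0%) in somas, against 35.9% and 27.3% of all genes. Proteins of dendritic RNA granules, which carry mRNAs along dendrites, were spread as 11 dendrite-only, 4 soma-only and 9 shared of 24 genes. Staufen, Stau1, was soma-only with 710 reads. Caprin1 had 1082 and 2 reads and Pum2 1410 and 522, whereas Cpeb1 had 125 and 2598 and Cyfip1 344 and 8260. Fxr2 was dendrite-only with 76 reads in 4 introns.

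Of 57 matrix and integrin genes, 31 (54.4%, interval 41.6 to 66.6) were dendrite-only, against 40.6% of all genes, with 8 soma-only and 18 shared. Col1a2 (291 reads) and Col9a1 (360) were dendrite-only, Sdc2 had 840 and 861 reads and Vcan 628 and 815. Of 42 genes of neuregulins, neurotrophins and growth factor receptors, 23 (54.8%, interval 39.9 to 68.8, which holds the 40.6% of all genes) were dendrite-only, 9 soma-only and 10 (23.8%, interval 13.5 to 38.5) shared, with 1.60 listed introns a gene. The shared count was 3 of 21 with at least 32 reads in 1 intron. The neurotrophin receptors Ntrk2 (51 and 823 reads) and Ntrk3 (14 and 1738) had more reads in somas. Ret was dendrite-only with 288 reads and Fgfr2 soma-only with 3670. Flt1, also counted as an endothelial marker, had 228 and 6 reads in 7 and 2 introns.

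In the signalling, cytoskeletal and nuclear lists the interval of the shared percentage held that of all genes, while the ratios of some lists departed from it. MAPK, PKC and PKA pathway kinases were shared in 26 of 62 genes, protein phosphatases in 25 of 61 and cyclic nucleotide enzymes in 10 of 25. Of the 25 kinases with a ratio, 13 (52.0%) were 4-fold or more higher in dendrites and 7 (28.0%) in somas, with a median log2 ratio of 2.15. For all genes these values were 35.9%, 27.3% and 0.54. Mapk14 had 2294 and 52 reads, and Pde1c had 3300 and 665. Insulin, mTOR and PI3 kinase genes were shared in 20 of 43, calcium release and calmodulin kinase genes in 9 of 18. Stim1, the calcium sensor of the endoplasmic reticulum, had 1038 and 2 reads, and Camk2d was dendrite-only with 169. Motors were shared in 20 of 47 genes and microtubule, spectrin and ankyrin genes in 13 of 37. Of the 12 microtubule, spectrin and ankyrin genes with a ratio, 1 (8.33%) was 4-fold or more higher in dendrites and 6 (50.0%) in somas, with a median log2 ratio of -2.62. Macf1 had 568 and 5 reads, with 10 introns in dendrites and 2 in somas, and Nav3 had 2 and 1757, with 1 and 8. Chromatin genes were shared in 39 of 86, transcription factors in 44 of 119, DNA repair genes in 21 of 65, solute carriers in 41 of 134 and centrosome genes in 40 of 103. Of the 18 DNA repair genes with a ratio, 9 (50.0%) were 4-fold or more higher in dendrites and 4 (22.2%) in somas, with a median log2 ratio of 1.99. These lists were not matched by depth. The median log2 ratio of all shared introns was 1.49 at 16 to 63 reads and -2.26 at 1024 or more. At a minimum of 32 reads in 1 intron, kinases were shared in 8 of 41 genes, the microtubule list in 5 of 26, DNA repair genes in 4 of 33 and centrosome genes in 12 of 62. With soma contigs of at most 400 bases, phosphatases were shared in 16 of 59 and insulin, mTOR and PI3 kinase genes in 12 of 43, that is 27.1% and 27.9%, against 30.9% of all genes under that limit.

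**Figure D5:**
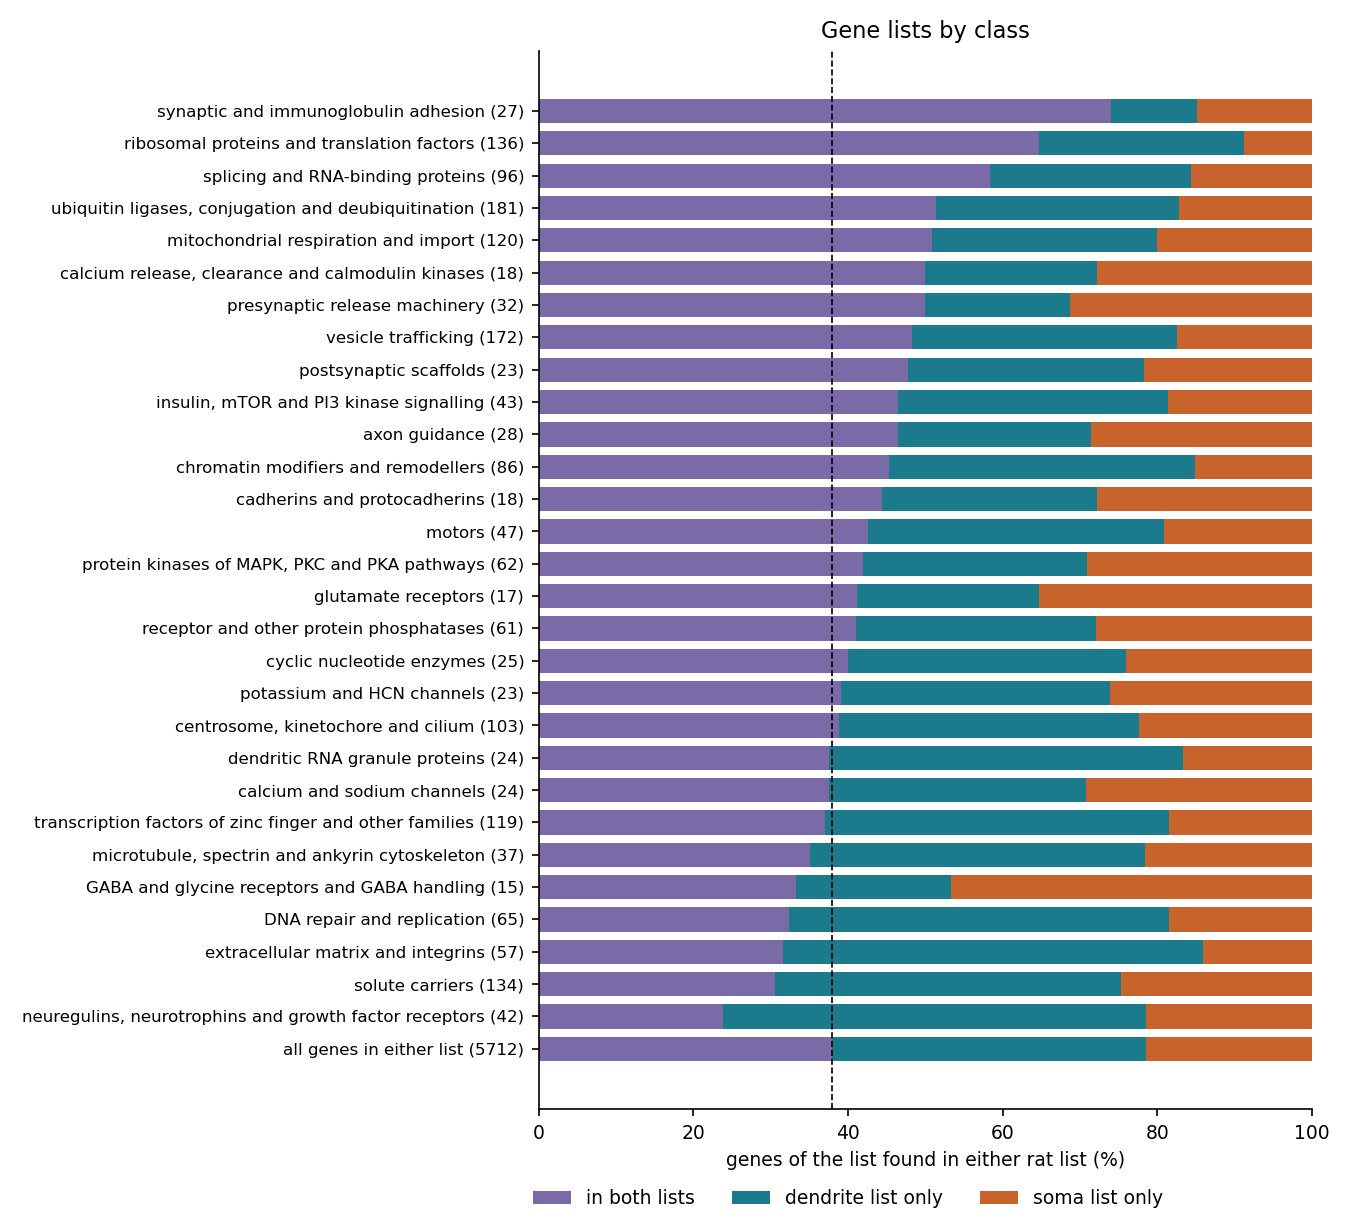
Share of the genes of each functional list (%, horizontal axis) that were in both rat lists, in the dendrite list only or in the soma list only, for the lists of at least 15 genes reported here (number in parentheses). The dashed line marks 37.9%, the shared percentage of all 5712 genes; adhesion genes reach 74.1% and growth factor genes 23.8%.

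The genes that the study names for rat neurons were in part named from these libraries and are not independent evidence. Of the 8 found, Atl1 and Yrdc were dendrite-only and 6 were shared, or 3 of 8 with at least 32 reads in 1 intron. Htt, the Huntington disease gene, had 2658 reads in 7 dendrite introns and 214 in 3 soma introns. Its intron 28 held 2329 of the dendrite reads and was not listed in somas, and intron 10 was shared with 136 and 88 reads. Atl1, mutated in spastic paraplegia, had 711 reads in intron 10 and 3 in intron 14. Atxn10 had 970 reads in intron 9 in dendrites and 5 reads in 2 other introns in somas. The potassium channel Kcnma1 was turned the other way, with 5 reads in dendrites and 859 in somas, nearly all in intron 3, whose contigs spanned more of the intron in somas.

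Mouse neurons were processed in the same way, but with 3 dendrite libraries against 2 in rat, beside 3 soma libraries in each species. The part of library number in the differences below was not tested. Of 24996 mouse introns in either list, 57.7% were dendrite-only, 22.1% soma-only and 20.2% in both, against 51.2%, 31.8% and 17% in rat. The shared introns were 25.9% of the mouse dendrite list, near the 24.9% in rat, and 47.8% of the mouse soma list, above the 34.8% in rat. The intervals of the dendrite shares were 25.3 to 26.5 in mouse and 23.9 to 25.9 in rat. Those of the soma shares were 46.8 to 48.7 and 33.5 to 36.1. They take each intron as a separate draw, so they are no test between the species. The pooled lists do not show the spread between libraries behind these shares.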

How the data were processed

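The authors sequenced paired-end libraries of aRNA from rat dendrites (2 libraries) and somas (3), aligned trimmed reads to rn4 with RUM, counted the intronic reads with 1 mapping position, dropped introns that held predicted exons, poly(A) sites, known non-coding RNAs or just exon-intron junction reads, and clustered reads within 500 bases into contigs. The reads carry no strand information, so antisense and overlapping genes cannot be told apart. The deposited value is a raw read count per intron, pooled over libraries and repeated on each contig, and the depth of each library is not in the lists. Here the count was taken once per transcript and intron and divided by the list total of 1007530 (dendrites) or 2094541 (somas) reads and multiplied by 1000000. Ratios required at least 16 reads in both lists together, were called at 4-fold, and carry exact Clopper-Pearson 95% intervals; shares carry 95% Wilson intervals. No test was made, since each group is 1 pool. For genes, reads of distinct introns were added. Scripts used Python 3.11.15, pandas 2.3.3 and scipy 1.17.1 and were tested on simulated data.

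The named introns were the 12 with the most reads in each compartment alone, the 10 shared introns with the highest smaller RPM, the 8 largest and 8 smallest ratios among shared introns with at least 64 reads in 1 list, the 6 genes of each compartment with the most introns, the 8 genes with no shared intron and the most reads in the smaller list, the leading members of each gene list and introns with designed primers. The gene lists were written by symbol pattern, and a few members differ in function (Katnal1 among chromatin genes, Vps72 among trafficking genes). The members and lists were chosen with earlier results of these data known. Lists of other cell types of the series served only to count introns. Genome sequence of rn4 was not used here. A few genes and 1 gene list that the rule selects are not reported here.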

Additional observations from a re-analysis of the deposited data

How the results depend on the processing

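No paired analysis was possible because each list pools the libraries of its group, and for the same reason no library could be left out. Of 86 alternative values for the main results, 47 stayed within 1.5 times a count or within the interval of a share or median, and 39 moved. Only the median log2 ratio has a sign, and it stayed above 0 in each setting. The larger of the 4-fold counts passed from dendrites to somas when the lists were scaled to the median ratio. With contigs of at most 400 bases in the soma list, 2278 introns were soma-only and 1228 shared (16.5% of dendrite introns). With that limit in both lists, 934 introns (17.7% of dendrite and 26.6% of soma introns) and 1400 genes were shared, and 228 introns were 4-fold higher in dendrites and 176 in somas. With at least 8 reads, 3618 introns were dendrite-only and 990 shared (21.5% and 28.0%), with 1319 shared genes. With at least 32 reads, introns split into 2253 dendrite-only, 1951 soma-only and 556 shared (19.8% and 22.2%), with 1361 dendrite-only and 818 shared genes. Matching introns by overlap of contigs left 1230 shared introns (16.6% and 23.1%) and 3494 dendrite-only, 2402 soma-only and 991 shared genes, since an overlap is a stricter match. Without the 10 introns with the most reads, shared introns held 35.3% of dendrite and 42.1% of soma reads and shared genes 63.5% and 75.6%. With counts summed over contigs these were 45.1%, 56.9%, 68.1% and 83.8%. The median log2 ratio was 0.21 when scaled to the median ratio and 0.25 for introns with at least 32 reads, and both of these intervals reach below 0. The share past 4-fold was 58.4% for at least 8 reads and 64.8% for at least 32. Of 36 gene lists, 24 had a shared percentage above that of all genes, 23 with the limit on soma contigs and 20 with at least 32 reads. With at least 32 reads in 1 intron, 25.3% of all genes were shared, and in 11 of 26 lists with 20 or more genes the percentage was lower by more than 1.5 times. With the limit on soma contigs, protein phosphatases fell to 27.1% and insulin, mTOR and PI3 kinase genes to 27.9%, against 30.9% of all genes. The values of subsets with at least 32 reads and of same-ended contigs with at least 16 reads were added after seeing the data. Among 72 shared percentages of single lists, 23 left the interval of the main value. The cause of these changes was not tested.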

Other observations

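A few introns and genes outside the accounts above are given here as values, chosen after their values were seen. Xrn2, the nuclear exonuclease that ends transcription, had a contig with the same first and last base in both lists in intron 11 (chr3:135671333-135671429), with 4 reads in dendrites and 2776 in somas. Mybph intron 7 had 1281 and 1885 reads in the same 488 bases, and Nme1 intron 4 had 615 and 133 in the same 694 bases. Among centrosome and kinetochore genes, Cep70 had 55 reads in dendrites and 9446 in somas, and Kif20a, listed with the motors, had 1791 and 271. Among DNA repair genes Mcm6 was soma-only with 7517 reads and Fancl dendrite-only with 787. Slc22a18 was the solute carrier with the most soma-only reads (8482), and Slc38a4 that with the most dendrite-only reads (837).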
